A study of Mus musculus with 16 samples.

Results

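The genes described are the inhibitors of cyclin-dependent kinases (CDKs) Cdkn1a, Cdkn1b, Cdkn2a, Cdkn2c and Cdkn2d, the p53 gene Trp53 with its ubiquitin ligase Mdm2, and the retinoblastoma family Rb1, Rbl1 and Rbl2. They were taken by symbol from a table of read counts per gene. All 10 listed symbols were found, among 34573 gene rows. Their RNA was followed in mouse CD8+ T cells as these passed from the resting state into division and prolonged stimulation in culture. The starting cells were naive CD8+ T cells of C57BL/6 mouse spleens. They were activated by antibodies to CD3e and to CD28, each at 10 µg/ml, followed the next day by the growth factor IL-2 at 300 U/ml. No label names a transgene, a deletion or a tumour, so "Tex" here means cells sorted by surface receptors in this culture. The Tn state is the unstimulated cell of day 0, sorted as CD8+ CD44- cells with a naive surface phenotype. The Teff sorts took PD-1+ TIM-3- cells, at day 2 (Teff1) or at day 5 (Teff2). Tex is the PD-1+ TIM-3+ fraction sorted at day 5. Both of these surface receptors limit T cell activation. Each state had 3 RNA-seq libraries from 0.2 M cells each. The labels do not say whether libraries of a state came from separate mice or cultures, so the p-values measure the spread between these samples only, which may be technical.

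A resting T cell is held out of the cell cycle partly by CDK inhibitors and by Rb family proteins, which bind E2F transcription factors and keep their target genes silent. After stimulation, cyclins and CDKs phosphorylate the Rb proteins, E2F targets are expressed and the cell enters S phase. The Cip/Kip inhibitors p21 (Cdkn1a) and p27 (Cdkn1b) bind cyclin-CDK complexes, the INK4 inhibitors bind CDK4 and CDK6, and p53 is a stress-responsive factor that raises transcription of Cdkn1a and of its own inhibitor Mdm2. Much of the control of p27, p53 and the Rb proteins acts on the protein, which RNA counts do not show.

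The libraries held 14.7 to 21.2 M counts. Values are given as CPM, the count of a gene per M counts of its library, with library sizes scaled by edgeR's TMM method. A total of 3 counts, the limit that a count of 0 allows, corresponds to 0.143 to 0.204 CPM for counting error only. Havcr2, which encodes TIM-3, was at 10.8 to 38.4 CPM in Tex and 0.258 to 0.612 CPM in Teff2, and Pdcd1, which encodes PD-1, was at 2.99 to 6.92 CPM in Tn and 72.2 to 241 CPM in the stimulated states, as the sorts were labelled. Cd44 was at 6.33 to 36.2 CPM in Tn and 73.5 to 469 CPM in the stimulated states. Cd8a was at 714 to 1530 CPM in all libraries. The Tn libraries also held RNA of other spleen cells: the summed level of B cell markers was 479, 38.3 and 997 CPM in replicates 1, 2 and 3, against 5.35 to 9.15 CPM in the stimulated libraries. MHC class II genes summed to 1340, 112 and 2020 CPM in Tn and to 29.1 to 121 CPM in the stimulated libraries. Macrophage and monocyte markers (6 of 7 in the table) summed to 61.2 to 215 CPM in Tn and 4.28 to 11.5 CPM after stimulation, and erythroid markers to 65.7 to 150 and 0.322 to 6.98 CPM. Natural killer (NK) and CD4 T markers went the other way. NK markers summed to 48.8 to 144 CPM in Tn and 86.1 to 460 CPM after stimulation, and CD4 T markers to 17.7 to 149 and 193 to 627 CPM. Whether these came from other cells was not tested. All 6 B cell and all 4 class II genes were in the table, and 0 of them were at 0 in the Tn libraries. Replicate 1 stood apart from replicates 2 and 3 at day 5, and it is described on its own below. In bulk libraries, fewer cells of a type and less RNA per cell cannot be told apart.

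Between Tn and Teff1, Cdkn1a, Cdkn2c and Rbl1 rose and Cdkn1b and Rbl2 fell, so 5 of the 10 genes were called by edgeR's quasi-likelihood test at a Benjamini-Hochberg adjusted p under 0.05. Of all 14332 genes tested, 48.9% were called in that comparison, 24.5% higher and 24.5% lower, so the share of these genes called is near the background. Trp53 and Mdm2 did not pass. The median log2 fold change of the 10 genes was -0.03, and that of all genes tested was -0.06. In Teff2 compared with Tn, 2 genes (Cdkn1a and Cdkn2c) were higher and 2 (Cdkn1b and Rbl2) lower, where 48.9% of all genes were called, 25.6% higher and 23.3% lower. In Tex compared with Tn, 3 (Cdkn1a, Cdkn2a and Cdkn2c) were higher and 2 (Cdkn1b and Rbl2) lower, where 52.9% of all genes were called, 27.3% higher and 25.6% lower. Cdkn2a passed the filter on low counts only through its Tex libraries, where it is high, so its call is no support for that count. These comparisons share the Tn libraries and are not independent. With replicate 2, the library with the fewest B cell and class II counts, as the only Tn library, Cdkn1a and Cdkn1b were still called in all 3 comparisons and Cdkn2c in Tex. The other calls were lost there, in a fit that assumes the lone library varies like the other states. The log2 fold changes there were 2.53 (adjusted p = 0.0559) and 2.44 (0.0596) for Cdkn2c in Teff1 and Teff2, 0.87 (0.175) for Rbl1 in Teff1, and -1.39, -0.96 and -0.97 for Rbl2 in Teff1, Teff2 and Tex (0.0776, 0.207 and 0.184).

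**Figure D1:**
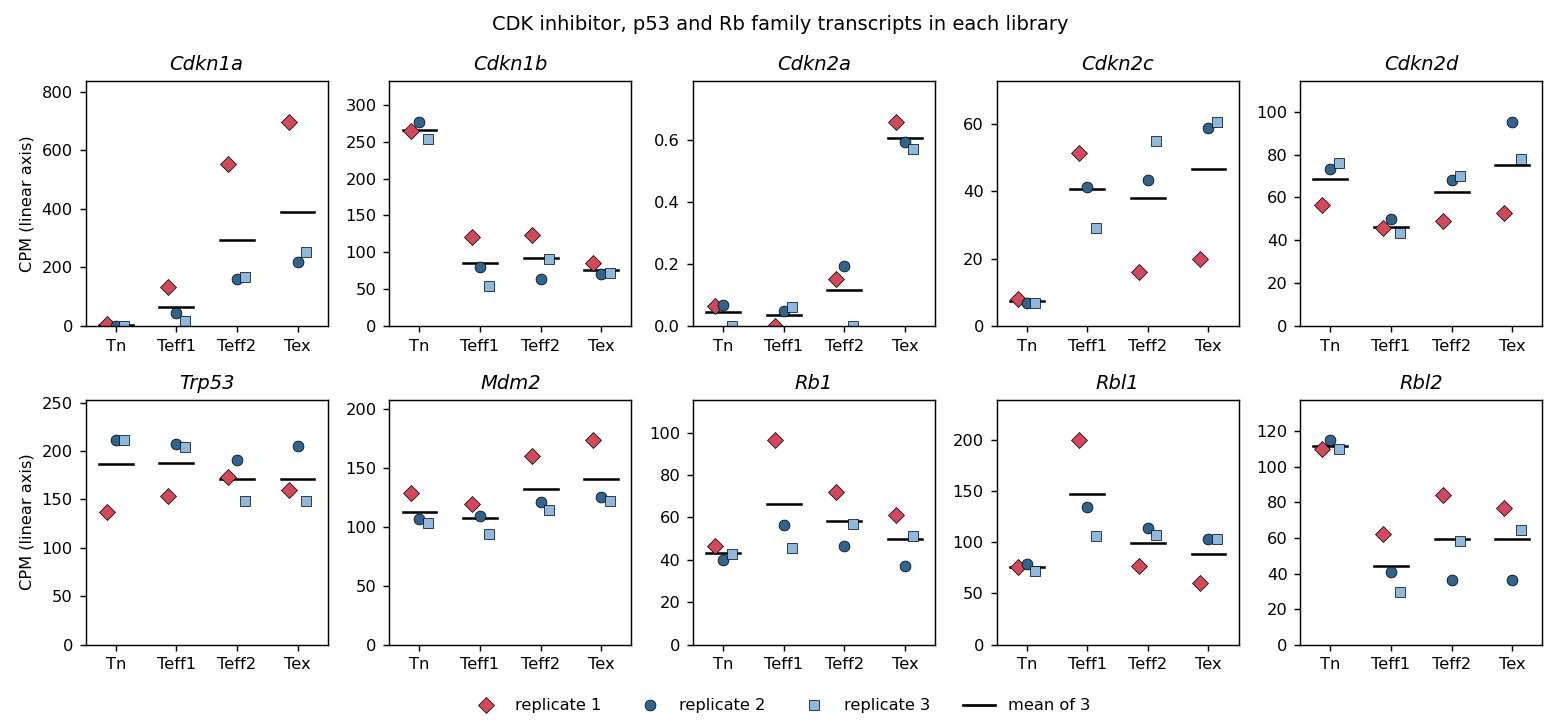
Level of each of the 10 genes in CPM (vertical axes, each starting at 0) in the 4 states (horizontal axes), with 1 point per library, replicate 1 marked apart, and a line at the mean of 3 libraries. Cdkn1a lies at 0.476 to 6.68 CPM in Tn and at 162 to 697 CPM at day 5, Cdkn1b and Rbl2 are highest in Tn, and replicate 1 is the highest Cdkn1a library of every state.

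Cdkn1a, the gene of p21, had the largest fitted change of the 10 genes in Teff1, Teff2 and Tex compared with Tn. It is at chr17:29090979-29100722 on GRCm38.p6, and the sequence before its first start site is shown because p53 acts on this gene through sites in its promoter. The 250 bases before the start in RefSeq (GRCm38.p6, chr17:29090729-29090978, plus strand, 5′ to 3′) are given with matches to the p53 decamer, the unit that p53 response elements repeat, in capitals.
Cdkn1a: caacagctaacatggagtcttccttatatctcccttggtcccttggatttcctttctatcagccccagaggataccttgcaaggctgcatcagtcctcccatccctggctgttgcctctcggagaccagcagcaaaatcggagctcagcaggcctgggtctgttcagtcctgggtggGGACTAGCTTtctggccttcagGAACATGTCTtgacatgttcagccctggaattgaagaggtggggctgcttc
The matches begin 73 and 51 bases before the start and are 12 bases apart. Only exact matches were searched for, so near matches beside them are not marked. The window of a later start site, 2790 bases downstream, held no match. A p53 decamer match, searched on both strands, was present in 8.36% of all 32851 promoter windows of 300 bases, and in 4 of the 12 windows of these genes (Cdkn1a, Cdkn2d, Trp53 and Mdm2). A match of letters does not show binding.

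Cdkn1a was at 6.68, 0.476 and 1.56 CPM in Tn replicates 1, 2 and 3, from 101, 7 and 29 counts. In Teff1 it was at 133, 44.8 and 16.3 CPM. The lowest Teff1 library lay above the highest Tn library, although the Teff1 libraries themselves spanned 16.3 to 133 CPM. In Teff2 it was at 553, 162 and 169 CPM, and in Tex at 697, 218 and 251 CPM. Every day 5 library thus exceeded every day 2 library, and Tex and Teff2 overlapped.

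The mean of Cdkn1a went from 2.90 ± 3.31 CPM in Tn to 64.7 ± 60.9 in Teff1, 294 ± 224 in Teff2 and 389 ± 268 in Tex (SD, n = 3 each). Against Tn, the log2 fold change was 4.48 (SE 1.01, adjusted p = 0.00345) in Teff1, 6.67 (SE 1.10, adjusted p = 5.20e-04) in Teff2 and 7.07 (SE 1.12, adjusted p = 3.36e-04) in Tex. As ratios of mean CPM these are 22.3-fold, 101-fold and 134-fold. The size of the change rests on single libraries, since Tn replicate 1 held most of the Tn counts. Without that library the log2 fold changes were 5.94, 8.12 and 8.52, and without replicate 1 of the stimulated states they were 3.49, 5.93 and 6.44, all still called. Among the Tn libraries Cdkn1a was highest in replicate 1 and lowest in replicate 2. The macrophage and monocyte marker sum took that order too (215, 61.2 and 128 CPM), the B cell and MHC class II sums were lowest in replicate 2 but highest in replicate 3, and the erythroid sum was lowest in replicate 3 (150, 136 and 65.7 CPM). The part of other cells in the Tn level of Cdkn1a was not tested.

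Cdkn1b, the gene of p27, fell with stimulation and stayed below the Tn level in every later library. The Tn libraries held 265, 277 and 254 CPM, and the Teff1 libraries 121, 79.7 and 54.2 CPM. At day 5 it was at 124, 64.2 and 90.4 CPM in Teff2 and 85.0, 70.3 and 71.9 CPM in Tex. The highest stimulated library was at 124 CPM, whereas the 3 Tn libraries lay within 254 to 277 CPM. The log2 fold change against Tn was -1.64 (SE 0.28, adjusted p = 7.16e-04) in Teff1, -1.51 (SE 0.28, adjusted p = 0.00113) in Teff2 and -1.81 (SE 0.29, adjusted p = 3.31e-04) in Tex. The gene is at chr6:134920401-134925525. Cdkn1a and Cdkn1b thus moved in opposite directions against Tn in each of the 3 stimulated states.

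**Figure D2:**
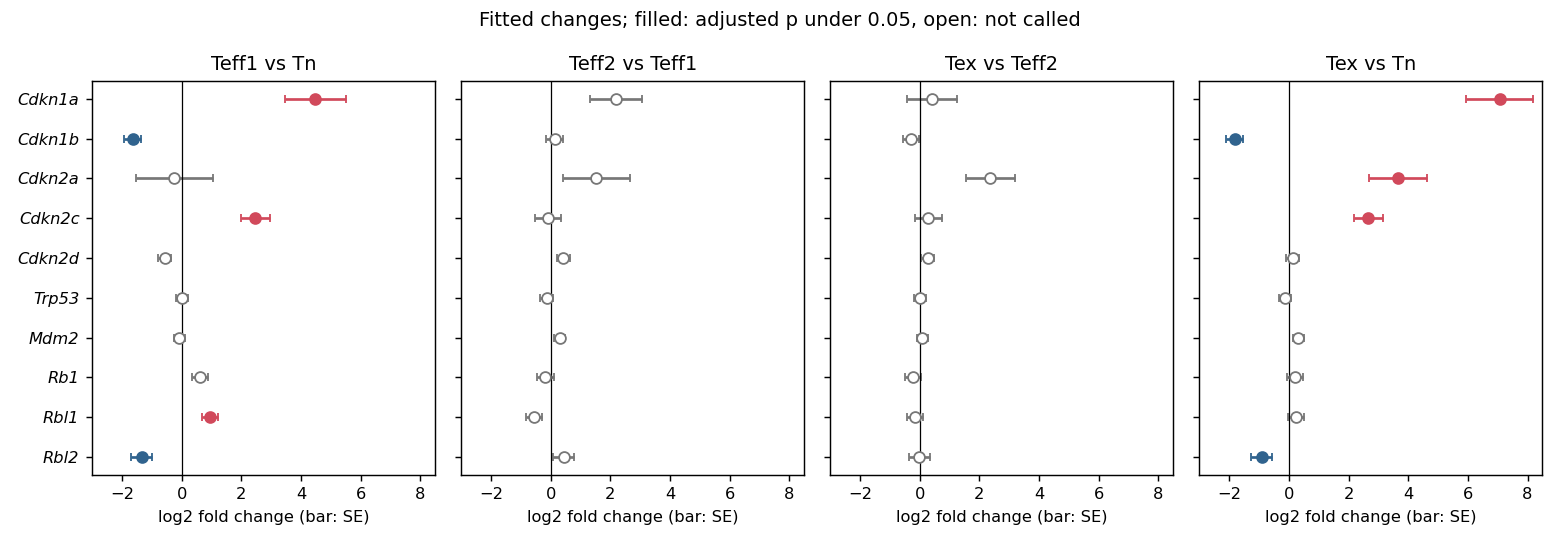
Log2 fold change fitted by edgeR (horizontal axes) of each of the 10 genes (vertical axis) in 4 comparisons, 1 panel each. Bars are an approximate standard error, from the fold change and the F statistic. Filled points are called genes and open points are the others. Cdkn1a stands at 4.48 in Teff1 and 7.07 in Tex against Tn and Cdkn1b at -1.64 and -1.81, no point is filled in Teff2 against Teff1 or Tex against Teff2, and the Cdkn2a values depend on the prior count because most of its libraries had 0 to 3 counts.

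Among the INK4 genes, Cdkn2c, which encodes p18, rose in all 3 stimulated states compared with Tn. Its Tn libraries were at 8.14, 6.94 and 6.87 CPM, and its Teff1 libraries at 51.4, 41.2 and 29.2 CPM. In Teff2 it was at 16.1, 43.4 and 54.9 CPM and in Tex at 20.0, 58.9 and 60.6 CPM. The groups did not overlap with Tn, and replicate 1 was the lowest library of both day 5 states. The log2 fold change against Tn was 2.47 (SE 0.48, adjusted p = 0.00144) in Teff1, a 5.55-fold ratio of means, and it was 2.38 (adjusted p = 0.00174) in Teff2 and 2.67 (adjusted p = 7.94e-04) in Tex. The gene is at chr4:109660876-109666756.

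Cdkn2d, which encodes p19Ink4d, stood at 56.4, 73.4 and 76.3 CPM in Tn, and at day 2 the values were 45.8, 50.1 and 43.4 CPM. All Teff1 libraries were below all Tn libraries, but the log2 fold change of -0.57 (SE 0.22) did not pass (adjusted p = 0.0513). Without replicate 1 of the stimulated states it was -0.48 and called (adjusted p = 0.0373), so the call turns on settings. At day 5 the levels were 49.1, 68.1 and 70.0 CPM in Teff2 and 52.7, 95.3 and 77.9 CPM in Tex, which overlap with Tn. The gene is at chr9:21288459-21291421.

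Cdkn2a was close to the limit of detection in every library. Its row cannot separate the transcripts of p16Ink4a, the CDK inhibitor, and p19Arf, which inhibits MDM2, since both come from this gene, at chr4:89274473-89294619. It had 1, 1 and 0 counts in Tn, 0, 1 and 1 in Teff1, 3, 3 and 0 in Teff2, and 12, 11 and 11 in Tex. Each Tex library therefore held more counts than any library of the other states. The mean Tex level was 0.608 ± 0.0451 CPM (SD, n = 3). With the counts of the 3 libraries of a state pooled, Tex was 14.7-fold Tn, from 34 counts against 2. The 95% counting interval was 3.77 to 126. Against Teff2 the pooled ratio was 5.44 with an interval of 2.26 to 15.9, from 34 counts against 6. Both intervals cover counting error only. The gene was called higher in Tex than in Tn by edgeR's quasi-likelihood test (adjusted p = 0.00734). This call is a description only, since the gene passed the filter on low counts through the Tex libraries alone, and the fitted fold is not given as a size because it depends on the prior count. Tex compared with Teff2 did not pass (unadjusted p = 0.0138, adjusted p = 1).

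Trp53, the gene of p53, passed in no comparison. It was at 137, 211 and 211 CPM in Tn, 153, 207 and 204 in Teff1, 173, 191 and 148 in Teff2 and 160, 205 and 148 in Tex. The 4 state means lay between 171 and 188 CPM, while the libraries of Tn alone spanned 137 to 211 CPM. The log2 fold change of Teff1 against Tn was 0.01 (SE 0.21, adjusted p = 0.971). The gene is at chr11:69580348-69591873.

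Mdm2, which encodes the ubiquitin ligase that marks p53 for degradation and is itself a p53 target gene, also passed in no comparison. It was at 128, 106 and 103 CPM in Tn, 119, 109 and 93.3 in Teff1, 160, 121 and 114 in Teff2 and 173, 125 and 122 in Tex. Replicate 1 was the highest library in all 4 states. The gene spans chr10:117688875-117710758. The 250 bases before its first start in RefSeq (GRCm38.p6, chr10:117710759-117711008, minus strand, written 5′ to 3′ along the gene) are shown because they hold, like the window of Cdkn1a, a p53 decamer match, and the capitals mark it and a forkhead match.
Mdm2: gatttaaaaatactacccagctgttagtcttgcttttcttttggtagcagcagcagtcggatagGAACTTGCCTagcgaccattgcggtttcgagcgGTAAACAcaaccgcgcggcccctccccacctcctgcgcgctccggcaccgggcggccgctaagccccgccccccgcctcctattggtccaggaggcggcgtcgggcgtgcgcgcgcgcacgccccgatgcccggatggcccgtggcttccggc
The p53 decamer match begins 186 bases before the start and the forkhead match, GTAAACA, 153 bases before it. The forkhead letters GTAAACA and ATAAACA, on either strand, were in 7.97% of all windows. Mdm2 has a further promoter within the gene that this window does not cover.

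In the retinoblastoma family, which holds 3 genes, Rbl2 fell, Rbl1 rose at day 2, and Rb1 did not pass. Rbl2 encodes p130, the family member that occupies E2F target genes in resting cells as part of the DREAM complex. Tn libraries were at 110, 115 and 110 CPM, and Teff1 libraries at 62.2, 41.0 and 29.4 CPM. In Teff2 it was at 84.2, 36.2 and 58.5 CPM and in Tex at 77.1, 36.1 and 64.5 CPM. All stimulated libraries were below all Tn libraries. The log2 fold change against Tn was -1.34 (SE 0.35, adjusted p = 0.00817) in Teff1, -0.90 (SE 0.35, adjusted p = 0.0482) in Teff2 and -0.92 (SE 0.35, adjusted p = 0.0427) in Tex.

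The day 5 calls of Rbl2 lie near the threshold. In Teff2 against Tn the adjusted p was 0.0890, 0.0934 and 0.0922 without Tn replicate 1, 2 or 3, 0.194 without Teff2 replicate 2 and 0.111 without Teff2 replicate 3. In Tex against Tn it was 0.0802, 0.0813 and 0.0828 without Tn replicate 1, 2 or 3, 0.154 without Tex replicate 2 and 0.0754 without Tex replicate 3. Without replicate 1 of all stimulated states, the log2 fold changes were -1.16 (adjusted p = 0.00567) and -1.06 (adjusted p = 0.00805). The gene is at chr8:91070057-91123844.

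Rbl1 encodes p107, which is itself made from an E2F-controlled gene. The 250 bases before its start in RefSeq (GRCm38.p6, chr2:157204535-157204784, minus strand, written 5′ to 3′ along the gene) are shown because this gene and Cdkn2a were those of the set with an E2F match, which is in capitals.
Rbl1: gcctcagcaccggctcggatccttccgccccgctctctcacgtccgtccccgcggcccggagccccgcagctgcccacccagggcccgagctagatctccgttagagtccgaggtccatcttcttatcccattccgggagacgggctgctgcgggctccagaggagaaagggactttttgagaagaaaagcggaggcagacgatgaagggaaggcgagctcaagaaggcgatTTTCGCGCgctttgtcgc
The match, TTTCGCGC, begins 18 bases before the start. The E2F letters searched on both strands were TTTCCCGC, TTTGGCGC, TTTCGCGC and TTTGCCGC, and 2.26% of all windows held one of them, against 2 of the 12 windows of these genes. Rbl2 had the one match to the cell cycle homology region, TTTGAA or TTCGAA on either strand, which 19.2% of all windows held.

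Rbl1 measured 75.5, 79.2 and 72.0 CPM before stimulation and 200, 135 and 106 CPM at day 2. The groups did not overlap, and the log2 fold change was 0.96 (SE 0.26, adjusted p = 0.0103), a 1.94-fold ratio of means. At day 5 it was at 77.3, 114 and 107 CPM in Teff2 and at 60.1, 103 and 103 CPM in Tex. Replicate 1 was near or below the Tn level there, and replicates 2 and 3 were above all Tn libraries. With all libraries Rbl1 did not pass at day 5, and without replicate 1 of the stimulated states it was called higher in Teff2 (log2 fold change 0.63, adjusted p = 0.00402) and Tex (0.54, adjusted p = 0.00835). The gene is at chr2:157145893-157204534.

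Rb1, which encodes the founding member of the family, measured 46.7, 39.7 and 42.8 CPM in unstimulated cells and 96.3, 56.4 and 45.7 CPM at day 2. Teff1 and Tn overlapped, and the log2 fold change of 0.62 (SE 0.28) did not pass (adjusted p = 0.0840). It was called without Teff1 replicate 3, at 0.84 (adjusted p = 0.0322). At day 5 Rb1 was at 71.8, 46.4 and 56.7 CPM in Teff2 and at 61.3, 36.8 and 51.1 CPM in Tex. It spans chr14:73192858-73325951.

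From day 2 to day 5, in Teff2 compared with Teff1, none of the 10 genes was called by edgeR's quasi-likelihood test, where 0.67% of all genes were, 0.558% higher and 0.112% lower. At an unadjusted p under 0.05 there was 1 of the 10, Cdkn1a, and DESeq2 called 0 of the 10, with 2 at an unadjusted p under 0.05. The share of all genes at that unadjusted limit is not given, so these counts have no background. Of all 14332 genes DESeq2 called 499 there, 74.5% of them higher. The Cdkn1a libraries did not overlap between these states, with a 4.55-fold ratio of means, a log2 fold change of 2.18 (SE 0.88) and an adjusted p of 0.340.

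Between the PD-1+ TIM-3+ and PD-1+ TIM-3- cells of day 5, none of the 10 genes was called in the unpaired test either, where 0.00698% of all genes were. At an unadjusted p under 0.05 there was 1 of the 10, Cdkn2a, and DESeq2 called 0, against 5 of all 14332 genes. No share of all genes is given at the unadjusted limit. Cdkn2a passed the filter on low counts only through its Tex libraries. Its p-values in this comparison, unpaired or within pairs, are therefore a description only. Tex and Teff2 libraries of one replicate number deviated together across genes, and a fit within those 3 pairs called 1.69% of 13096 genes, 0.962% higher and 0.725% lower. Within pairs Cdkn1a was higher in Tex by 0.44 log2 (SE 0.08, adjusted p = 0.0377), from differences of 0.33, 0.43 and 0.57 in the pairs of replicates 1, 2 and 3, all of one sign. The ratio of means was 1.32, while the Teff2 libraries alone spanned 162 to 553 CPM. The other 9 genes did not pass within pairs. The closest were Cdkn2a (adjusted p = 0.144), Cdkn2c at 0.29 (adjusted p = 0.169) and Rb1 at -0.24 (adjusted p = 0.179).

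Replicate 1 differed from replicates 2 and 3 in these genes, and this is given as values with no test because it is 1 library per state. Its deviation is the log2 level (0.5 CPM added) minus the mean log2 level of the other two. For Cdkn1a the deviation was 2.34 (Tn), 2.28 (Teff1), 1.74 (Teff2) and 1.57 (Tex), so this library was the highest in each state. In Tn and Teff1 replicates 2 and 3 also differed from each other, by 1.07 and 1.43, whereas in Teff2 they were 0.06 apart. Cdkn2c went the other way at day 5, with -1.57 in Teff2 and -1.56 in Tex after 0.56 in Teff1. Rbl1 deviated by 0.74 in Teff1, -0.51 in Teff2 and -0.78 in Tex. Rbl2 was above the other libraries in the 3 stimulated states, by 0.83, 0.86 and 0.67, and Cdkn1b by 0.87, 0.70 and 0.26. In Tn these last 3 genes deviated by 0.00, -0.04 and 0.00. Mdm2 was higher by 0.23 to 0.49 in all 4 states, and Trp53 by no more than 0.05, with lower values of -0.62 in Tn and -0.42 in Teff1.

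The median of the p53 target list was also higher in replicate 1 of the stimulated states. Of its 22 tested genes, 9 were at least 1 log2 unit higher in replicate 1 of Teff2, and 9 in Tex, or 40.9% in each, against 7.31% and 6.32% of all genes. In Tn and in Teff1 there were 5 such genes each, or 22.7%, against 5.09% and 4.88% of all genes. The median deviation of the list was -0.03 (Tn), 0.32 (Teff1), 0.66 (Teff2) and 0.68 (Tex), with 0.00 to 0.02 over all genes. Examples chosen after their values were seen are Bbc3, which encodes the pro-apoptotic protein PUMA, at 3.08 in Teff2 and 2.44 in Tex, and the death receptor gene Fas at 1.88 and 1.60. Perp was lower, at -1.37 and -0.60. Of the list, 9.09%, 4.55% and 0% were at least 1 log2 unit lower in Teff1, Teff2 and Tex. The shares of all genes were 3.98%, 6.54% and 5.76%. The E2F target list was lower in replicate 1 at day 5. Its median deviation was -1.04 in Teff2 and -0.96 in Tex, while the median was -0.01 in Teff1. In Teff2 and Tex, 0 of its 16 genes were above zero, against 7247 and 7173 of all 14332 genes. At least 1 log2 unit lower were 56.2% and 43.8% of the list, against 6.54% and 5.76% of all genes. Mki67, a gene of dividing cells, was at 239, 895 and 822 CPM in Teff2 and at 304, 715 and 809 CPM in Tex. The Teff2 and Tex libraries of replicate 1 deviated from their states together (r = 0.85 across 14332 genes), so they are not separate observations. What set replicate 1 apart was not tested.

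**Figure D3:**
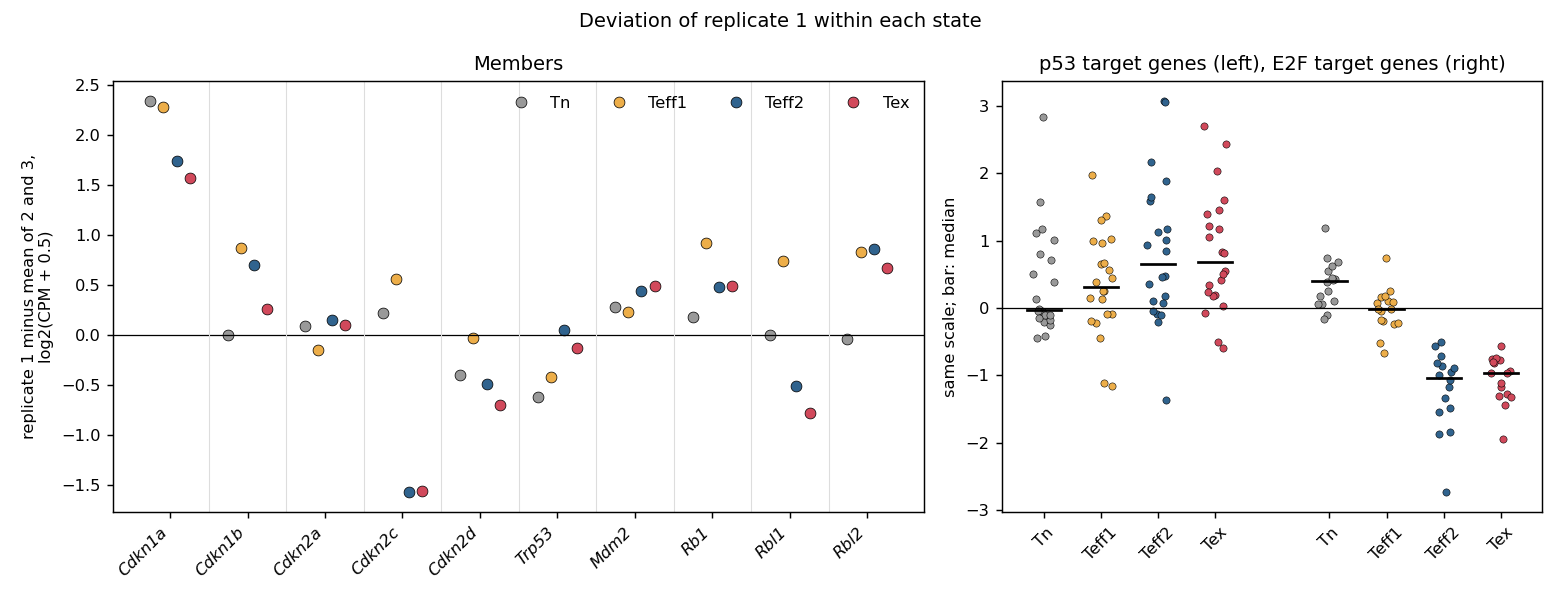
Deviation of replicate 1 from the mean of replicates 2 and 3 (vertical axes, log2 of CPM + 0.5), coloured by state, for each of the 10 genes (left panel) and for each gene of the p53 target and E2F target lists with a bar at the median (right panel). Cdkn1a lies at 1.57 to 2.34 in all states and Cdkn2c at -1.57 and -1.56 at day 5, where the medians are 0.66 and 0.68 for p53 targets and -1.04 and -0.96 for E2F targets.

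Without replicate 1 of the stimulated states, the set had 3 genes higher and 3 lower in Teff1 against Tn, and 3 higher and 2 lower in both Teff2 and Tex against Tn. Of the 14798 genes tested there, which did not include Cdkn2a, 28.4% were higher and 27.8% lower in Teff1 against Tn (56.3% in all). The shares were 30.3% and 27.1% in Teff2 against Tn (57.4%), and 32.1% and 29.1% in Tex against Tn (61.2%). None of the set was called by edgeR from Teff1 to Teff2, where 0.953% of all genes were, 0.716% higher and 0.237% lower, or in Tex against Teff2, where 0% were. Cdkn1a, Cdkn1b, Cdkn2c and Rbl2 were called in both fits in all comparisons with Tn, and the added calls were Cdkn2d at day 2 and Rbl1 at day 5.

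The genes that these proteins act on or answer to were counted in lists of known pathway genes. All 16 E2F target genes rose from Tn to Teff1, with a median log2 fold change of 3.31 against -0.06 for all genes, and 15 of 16 were higher in Teff2 and in Tex. The cyclin A gene Ccna2 went from 4.41 ± 1.98 to 177 ± 28.8 CPM (SD, n = 3; adjusted p = 2.55e-04), and the topoisomerase gene Top2a from 29.1 ± 8.35 to 1030 ± 330 CPM (adjusted p = 2.47e-05). Of 16 E2F, DP and DREAM genes, 11 were higher and 1 lower in Teff1, and 11 higher and 0 lower in Teff2 and in Tex. Among them the repressor E2f8 went from 2.46 to 59.0 CPM and Mybl2, which encodes B-Myb, from 4.99 to 104 CPM. Of 9 CDK and cyclin D and E genes, 7 were higher and 1 lower in Teff1, Teff2 and Tex. Beside these 3 lists, 24.5%, 25.6% and 27.3% of all genes tested were higher in Teff1, Teff2 and Tex against Tn. The shares lower were 24.5%, 23.3% and 25.6%. Cdk1 went from 3.00 to 112 CPM and Cdk6 from 17.5 to 105 CPM in Teff1. The lower gene was Ccnd1, at 8.07 CPM in Tn and 0.556 in Teff1. Its Tn libraries were at 11.9, 3.95 and 8.37 CPM in replicates 1, 2 and 3, and the part of other cells in this level was not tested.

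The list of genes for the turnover and control of p27 had 3 of 6 higher and 2 lower in Teff1, and 2 higher and 2 lower in both day 5 states. Among all genes, 24.5% to 27.3% were higher and 23.3% to 25.6% lower in these comparisons, and 2 of 6 is near those shares. Skp2, the receptor subunit of the ubiquitin ligase that removes p27, went from 4.22 ± 0.587 CPM to 19.4 ± 2.54 CPM (log2 fold change 2.20, adjusted p = 4.06e-05), and its cofactor Cks1b from 3.69 ± 0.552 to 108 ± 15.7 CPM (adjusted p = 2.46e-05; SD, n = 3). The 2 lower genes were Foxo1 and Foxo4, forkhead factors known to raise Cdkn1b transcription. Foxo1 went from 252 ± 33.6 to 80.7 ± 23.2 CPM (log2 fold change -1.65) and Foxo4 from 71.4 ± 9.26 to 22.3 ± 2.94 CPM (-1.68), both named after their values were seen. Foxo3 did not pass, at -0.75 (adjusted p = 0.159), but was called lower without replicate 1 of the stimulated states, at -0.81 (adjusted p = 0.00333).

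Of 22 p53 targets tested, 6 were higher and 6 lower in Teff1, near the 24.5% of all genes called in each direction. In both Teff2 and Tex, 11 were higher and 6 lower, where 25.6% and 27.3% of all genes were higher and 23.3% and 25.6% lower. The medians were 0.41, 0.88 and 0.92, with -0.06, 0.00 and 0.00 over all genes. Without replicate 1 of the stimulated states the p53 targets were 9 higher and 7 lower, 10 and 6, and 10 and 7, with medians of 0.28, 0.52 and 0.62. Sesn2, which encodes a stress-induced sestrin, went from 9.02 ± 2.91 to 88.8 ± 45.7 CPM in Teff1 (adjusted p = 1.60e-04), and Phlda3, an inhibitor of AKT, from 1.49 ± 0.435 to 13.0 ± 11.4 CPM (adjusted p = 0.0339; SD, n = 3). The Teff1 libraries of Phlda3 were at 25.9, 8.22 and 4.73 CPM, and without replicate 1 of the stimulated states its log2 fold change was 2.19 in place of 3.12 (adjusted p = 3.28e-04). Sesn1, Btg2 and Gadd45a fell, by 2.01, 1.83 and 2.02 on the log2 scale, and these 3 were named after their values were seen. Regulators of p53 had 3 of 10 higher and 0 lower in Teff1, 2 and 2 in Teff2, and 1 and 3 in Tex, read against the same shares of all genes. Without replicate 1 of the stimulated states they had 3 and 2, 3 and 4, and 3 and 5. The checkpoint kinase gene Chek1 went from 2.29 to 77.4 CPM and Atr from 63.5 to 102 CPM in Teff1. Of the 2 tested genes among other CDK inhibitors, Cdkn3, a phosphatase that acts on CDKs, was higher in all 3 states, and Cdkn1c was lower in Teff2, at 1.05 CPM in Tn and 0.331 in Teff2, while that list had 0 lower without replicate 1 of the stimulated states.

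No list had a called gene in Teff2 compared with Teff1 or in Tex compared with Teff2 by edgeR's quasi-likelihood test, nor within the day 5 pairs. Of all 14332 genes, DESeq2 called 499 in Teff2 against Teff1, 74.5% of them higher, and 5 in Tex against Teff2. The share of all genes at an unadjusted p under 0.05 is not given, so counts at that limit have no background. For p53 targets, 6 and 1 of 22 had an unadjusted p under 0.05 in these 2 comparisons, and DESeq2 called 2 higher and 0. Of the 6, Pmaip1, Btg2, Ei24, Perp and Polk were higher in Teff2 and Gadd45a was lower. The 1 in Tex against Teff2 was Ddb2, which was lower. For E2F targets, 4 and 0 of 16 had an unadjusted p under 0.05, and DESeq2 called 0 in both. The 4 were Cdt1, Mcm2, Mcm3 and Mcm5, all lower in Teff2. DESeq2 also called 0 in the lists of CDKs and cyclins, p27 turnover, p53 regulators and E2F, DP and DREAM genes, and the list of other CDK inhibitors was not run with it.

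**Figure D4:**
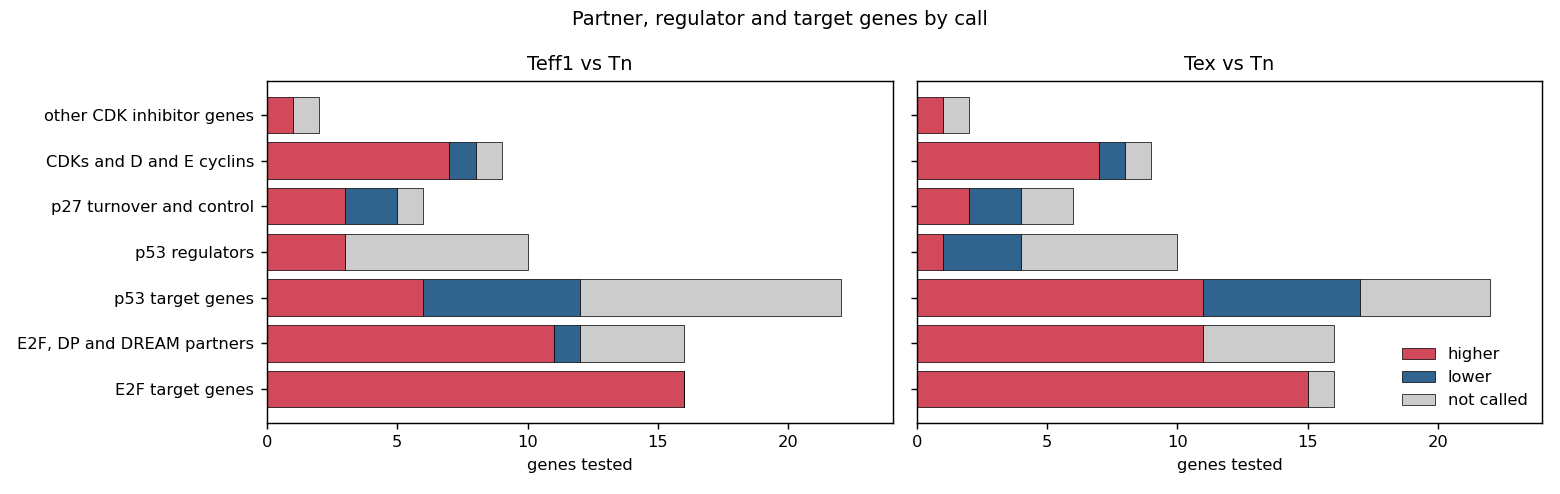
Number of tested genes (horizontal axes, starting at 0) called higher, called lower or not called by edgeR in each of the 7 pathway lists (vertical axis), for Teff1 against Tn (left) and Tex against Tn (right). E2F targets have 16 and 15 of 16 genes higher, whereas p53 targets have 6 and 11 of 22 higher and 6 lower in both.

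The genes whose pattern over the 12 libraries was closest to a member's were found by the root mean square difference of centred log2 levels among 9029 genes. For Cdkn1b they were Pink1, Lgals8 and Gm15800, at 0.16, 0.16 and 0.18. For Rbl2 they were Ezh1, Ing4 and Hbp1, at 0.11, 0.16 and 0.16, and for Rbl1 they were Tmco4, Orc5 and Haus3, at 0.14, 0.16 and 0.17. For Cdkn1a the closest were Serpine2, Stc2 and Psrc1 at 0.76, 0.83 and 0.84, a larger distance than for the other 3 genes. The levels were centred but not scaled, so the distance also grows with the range of a gene, and Cdkn1a spanned 0.476 to 697 CPM. This is a description over libraries that share states and replicates.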

How the data were processed

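Counts per gene were deposited by the authors as whole numbers for 12 libraries, 3 per state. The submitters' processing notes name mm10, HISAT2, HTSeq, DESeq2, BWA and Juicer. Strand settings, annotation and versions are not given in the sources used here, so antisense or overlapping genes cannot be told apart. A second table deposited by the authors holds normalized log2 values and served only as an alternative. The 4 Hi-C samples were not analysed here. No column of per-sample values was left unused in the count table, and 11535 of its 34573 rows had no count.

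Counts were tested with edgeR 4.0.16 in R 4.3.3, using TMM scaling, filterByExpr (minimum count 10; 14332 genes kept), the quasi-likelihood F test on all 12 libraries with state as the term, and Benjamini-Hochberg adjustment over all genes tested, with calls at an adjusted p under 0.05. Each SE is the absolute log2 fold change divided by the square root of the F statistic, an approximation to a standard error. Within-state correlations were 0.955 to 0.989, and no 2 libraries were identical. The scripts were tested on simulated data. DESeq2 1.42.0, limma 3.58.1 on the log2 values, other scaling, no filter, a replicate block and left-out libraries were alternatives.

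Whether replicate numbers pair libraries was checked by correlating deviations from the state means across genes. Tex and Teff2 libraries of the same number correlated at 0.85, 0.78 and 0.75, so these were treated as 3 pairs. No other comparison had all 3 correlations above 0.1.

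The 10 genes, the 7 pathway lists and the marker lists were chosen with earlier results of these data known. All 10 genes are named. From each list, the 2 genes with the largest absolute log2 fold change among those called and at 10 CPM or more in the higher state are named for Teff1 against Tn, and the 3 closest patterns (mean of 10 CPM or more) for up to 4 of the genes. Promoter windows (250 bases before to 50 after a start) and gene positions are from RefSeq on GRCm38.p6. They matched 9 of the 10 genes, with 12 windows.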

Additional observations from a re-analysis of the deposited data

How the results depend on the processing

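Of 14 calls among the 50 tests of these genes, none changed sign in 207 values under the alternatives, 190 kept their call and 17 lost it. The 14 include the call of Cdkn2a in Tex against Tn. That gene passed the filter on low counts only through its Tex libraries, so its kept calls are a description only. Of the 36 results that were not called, 15 changed sign under some setting, in 39 of 510 values, and 15 values became called. The number of these genes called was within 1.5 times the first value under DESeq2, upper-quartile scaling, no filter and limma on the deposited log2 values. Leaving out 1 library at a time gave 5 to 6 genes in Teff1 against Tn, 3 to 4 in Teff2 against Tn, 4 to 5 in Tex against Tn, and 0 to 0 in both Teff2 against Teff1 and Tex against Teff2. The share of all genes called in fits with libraries left out 1 at a time is not given, so these counts have no background. With Tn replicates 1 and 3 left out, the numbers were 2, 2 and 3 in Teff1, Teff2 and Tex against Tn. Only 1 Tn library remains there.

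The replicate block over all 12 libraries gave 7, 4 and 5 genes in Teff1, Teff2 and Tex against Tn, 1 in Teff2 against Teff1 and 0 in Tex against Teff2. With the block on only the 2 states compared, 1 gene was called in Teff2 against Teff1 and 1 in Tex against Teff2. All of these single calls were Cdkn1a. For fits with the block, the share of all genes called is given only for the day 5 pairs (1.69%). The other counts with the block have no background and are a description only. In Teff2 against Teff1 its adjusted p in edgeR's quasi-likelihood test was 0.0124 and 0.00619 with the block. The deviations of same-number libraries in these 2 states correlated at 0.51, 0.24 and 0.03. Teff2 replicate 2 correlated more with Teff1 replicate 3 (0.51) than with Teff1 replicate 2. The labels do not say whether same-number libraries are pairs, so whether the block applies is not known. The added calls with the block in Teff1 against Tn were Cdkn2d (adjusted p = 0.0152) and Rb1 (0.0260). Upper-quartile scaling moved the median of all genes from -0.06 to -0.20 in Teff1 against Tn, and called Cdkn2d (adjusted p = 0.0149). Depth limits Cdkn2a, at 0 to 12 counts per library.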
